A study of Homo sapiens with 14 samples.

Results

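The genes examined here were 10 transcription factors and receptors of the T lineage, BCL11B, TCF7, LEF1, ETS1, IKZF1, TOX, SATB1, RUNX3, NOTCH1 and NOTCH3, listed by symbol and matched through gene identifiers to the 58440 genes counted in a series of cell mixtures. All 10 were found, and all 10 passed the filter on low counts in the comparison of the pure lines, where 15794 genes were tested. HEK-293T, called HEK here, is an adherent line that comes from human embryonic kidney, and Jurkat is a T cell line grown from a human leukemia. Each is a single established line, so a difference between them is a difference between 2 lines and not between kidney and T cells in general. Suspensions of both lines were mixed to contain 0%, 20%, 40%, 50%, 60%, 80% or 100% Jurkat cells, with HEK cells as the remainder. RNA-seq of polyA RNA gave 2 libraries for each of the 7 conditions, 14 in all. The labels call the paired libraries technical replicates, so every p-value given here measures the spread between such libraries and not between cultures.

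These factors act in sequence while a thymic progenitor becomes a T cell. A Notch receptor is cut after it binds a ligand on a neighbouring cell, and its released intracellular domain acts with RBPJ in the nucleus, where TCF7 is among the early genes that it switches on in the thymus. TCF7 and its relative LEF1 bind DNA through an HMG box, and BCL11B, a zinc finger protein that comes on afterwards, closes off other fates. ETS1, RUNX3 and the Ikaros protein IKZF1 bind at enhancers of T cell genes, TOX is needed for the CD4 lineage, and SATB1 is a chromatin organizer of thymocytes.

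The libraries held from 4468822 to 28303668 gene counts, and 3 counts, taken as the floor of detection, corresponded to 0.106 to 0.671 CPM, the unit in which counts are scaled to the total over all genes without spike-ins. Intervals and floors cover counting error only. ERCC spike-ins, synthetic RNAs put into every sample in the same volume, made up 0.674% to 7.65% of counts. Checked against their labels, all 10 T cell markers (such as CD3D, CD2 and LCK) were higher in pure Jurkat, where their summed level was 2432 to 2858 CPM against 2.84 to 5.82 CPM in pure HEK. All 6 genes taken as markers of adherent cells (KRT8, KRT18, CDH2, YAP1, WWTR1 and CAV1) were higher in pure HEK. Their sums were 203 to 221 CPM against 18.6 to 32.2 CPM, of which CDH2 alone averaged 108 CPM in HEK and 22.3 CPM in Jurkat. No myeloid marker had enough counts to be tested. By the form of their deposited file names the libraries fall into groups of 8 and 6. All pure Jurkat libraries are in the one and all pure HEK libraries in the other, so within the pure libraries this grouping, whose meaning the labels do not give, cannot be told apart from the line. The conditions with 40% and 50% Jurkat cells have a library in each group. A fit of all 14 libraries with the grouping as a term called 9 members between the pure lines, beside 25% of all genes. The same fit without the term also called 9, beside 41.7% of all genes, and the fit of the pure libraries called 43.2% of genes.

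Between the pure lines, 9 of the 10 members were higher in Jurkat in the quasi-likelihood test of edgeR, adjusted over all genes tested by Benjamini and Hochberg's method, and NOTCH3 did not pass. Over all 15794 genes, 19% were higher in Jurkat and 24.2% higher in HEK, 43.2% in all. Both Jurkat libraries stood above both HEK libraries for the same 9 members, as for 27.6% of genes tested. The median log2 difference, Jurkat minus HEK, was 5.20 over the members and -0.07 over all genes tested. The 10 members were listed with the lines' T cell origin known, so the count describes them and is no separate evidence of the lines' identity.

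The stretches just upstream of a RefSeq start site of the members were read (GRCh38.p14). A window of 250 bases was available for 8 members, namely BCL11B, TCF7, LEF1, IKZF1, SATB1, RUNX3, NOTCH1 and NOTCH3. By the GENCODE gene models, the windows of TCF7, LEF1 and IKZF1 lie wholly inside the gene, and those of SATB1 and RUNX3 partly inside it. The window of LEF1 is covered by annotated exons throughout. Words found in TCF7, LEF1 and IKZF1 thus lie within the gene by these models. Both strands were searched for 6 words of 6 letters: CTTTGA as a core of TCF and LEF sites, CCGGAA and CAGGAA as cores of ETS sites, TGTGGT as a core of RUNX sites, TGGGAA as a core shared by RBPJ and Ikaros sites, and AGATAA as a core of GATA sites. Among 35116 promoter windows of the same length, the shares holding these words were 11.2%, 14.5%, 24.1%, 11.0%, 20.8% and 9.17%, in that order. RUNX3 held TGTGGT at 2 places on the strand opposite to the gene, 131 and 123 bases before its start, and TGGGAA once. LEF1 held TGTGGT and TGGGAA once each, IKZF1 held CAGGAA and TGGGAA once each, and TCF7 held CCGGAA once. None of the 6 words was in the windows of BCL11B, SATB1, NOTCH1 and NOTCH3. Windows of 4 members are printed 5′ to 3′ on the strand of the gene, without any part that GENCODE marks as an exon. They set a window with 2 RUNX words (RUNX3) and one with an ETS word (IKZF1) beside those of a gene with a large difference between the lines (BCL11B) and a gene with a small one (NOTCH3). They lie at chr1:24965122-24965260 (RUNX3, minus strand), chr7:50304466-50304677 (IKZF1, plus strand), chr14:99272198-99272447 (BCL11B, minus strand) and chr19:15200996-15201245 (NOTCH3, minus strand). Capitals mark the words, which read ACCACA where TGTGGT lies on the other strand. A match is a description of letters and not a bound site.
RUNX3: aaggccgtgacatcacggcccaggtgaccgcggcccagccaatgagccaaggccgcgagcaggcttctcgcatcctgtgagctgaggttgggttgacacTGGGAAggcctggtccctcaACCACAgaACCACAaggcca
IKZF1: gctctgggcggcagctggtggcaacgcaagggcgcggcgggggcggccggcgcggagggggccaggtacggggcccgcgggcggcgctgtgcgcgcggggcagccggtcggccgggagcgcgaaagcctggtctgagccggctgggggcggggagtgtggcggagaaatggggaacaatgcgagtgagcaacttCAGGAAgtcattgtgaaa
BCL11B: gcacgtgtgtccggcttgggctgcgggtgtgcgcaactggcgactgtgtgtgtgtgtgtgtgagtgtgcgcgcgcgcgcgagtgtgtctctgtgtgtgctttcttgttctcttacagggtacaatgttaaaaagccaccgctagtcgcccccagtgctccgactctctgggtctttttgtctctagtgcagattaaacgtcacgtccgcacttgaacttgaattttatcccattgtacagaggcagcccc
NOTCH3: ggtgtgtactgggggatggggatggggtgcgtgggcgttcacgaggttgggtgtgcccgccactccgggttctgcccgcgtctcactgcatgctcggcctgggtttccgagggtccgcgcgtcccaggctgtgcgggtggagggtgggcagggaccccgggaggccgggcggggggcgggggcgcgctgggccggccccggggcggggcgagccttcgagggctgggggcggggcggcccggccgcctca

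The 2 Notch receptors had the lowest levels of the set in Jurkat when levels were taken per length. NOTCH1 (chr9:136494433-136546048) is the receptor that is mutated most often in T cell leukemia. It was at 6.45 and 4.95 CPM in pure HEK, at 3.69 and 7.36, 6.61 and 9.04, 7.67 and 12.8, 7.57 and 8.79, and 14.7 and 13.4 CPM with 20%, 40%, 50%, 60% and 80% Jurkat cells, and at 24.8 and 26.6 CPM in pure Jurkat. The pure Jurkat libraries were above all others, while up to 60% Jurkat cells the pairs overlapped with their neighbours. The log2 difference between the pure lines was 2.41 (SE 0.25, n = 2 and 2, edgeR adjusted p = 0.00215). NOTCH3 (chr19:15159038-15200995), a related receptor, was at 10.7 and 9.24 CPM in pure HEK and 5.82 and 4.03 CPM in pure Jurkat. In the mixtures from 20% to 80% Jurkat cells its pairs were 8.05 and 9.41, 11.8 and 12.3, 6.96 and 14.5, 6.85 and 11.6, and 8.35 and 8.40 CPM. It was the one member with both pure HEK libraries above both pure Jurkat libraries, at a log2 difference of -0.80 (SE 0.29, edgeR adjusted p = 0.0774). Without the first pure Jurkat library the value was -1.06 and the adjusted p 0.0490, and over all alternatives in CPM the adjusted p ranged from 0.0329 to 0.500.

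TCF7 and LEF1, the HMG box factors that carry the signal of beta-catenin and of Notch in early T cells, were the most abundant members in Jurkat per length. TCF7 (chr5:134114681-134151865) was at 20.9 and 15.6 CPM in pure HEK, at 38.8 and 40.0, 95.2 and 70.6, 98.3 and 122, 165 and 208, and 267 and 246 CPM from 20% to 80% Jurkat cells, and at 688 and 725 CPM in pure Jurkat. Its 7 pairs did not overlap at any of the 6 steps. The log2 difference between the pure lines was 5.50 (SE 0.28, edgeR adjusted p = 0.00064). LEF1 (chr4:108047545-108168956) was at 35.7 and 32.8 CPM in pure HEK, at 45.7 and 38.2, 91.0 and 121, 103 and 119, 124 and 113, and 369.7 and 422 CPM from 20% to 80% Jurkat cells, and at 938 and 797 CPM in pure Jurkat. LEF1 moved little between 40% and 60% Jurkat cells, where the pairs overlapped, and stood clear of its neighbours at 80% and 100%. Its log2 difference was 4.89 (SE 0.24, edgeR adjusted p = 0.00064).

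BCL11B (chr14:99169287-99272197), the zinc finger factor of T lineage commitment, was detected in HEK at a level far above the floor. It had 112 and 174 counts, or 11.8 and 11.5 CPM, in pure HEK, and 29.0 and 27.1, 50.1 and 50.6, 57.4 and 43.3, 86.9 and 107, and 116 and 161 CPM from 20% to 80% Jurkat cells. Pure Jurkat had 578 and 537 CPM, far above the highest mixture, and only the pairs at 40% and 50% Jurkat cells overlapped. The log2 difference between the pure lines was 5.80 (SE 0.24, edgeR adjusted p = 0.00064).

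ETS1 and IKZF1 had the lowest mean CPM of the members in HEK. TOX was as low in the second pure HEK library, at 0.264 CPM, but not in the first. ETS1 (chr11:128458761-128587558), founder of the ETS family, had 1 and 4 counts in the pure HEK libraries, or 0.106 and 0.265 CPM. It reached 8.51 and 8.86, 13.9 and 19.2, 37.9 and 26.9, 68.2 and 33.2, and 74.5 and 59.4 CPM from 20% to 80% Jurkat cells, and 194 and 475 CPM in pure Jurkat. The pure lines were far apart, but the 2 pure Jurkat libraries also differed from each other more than for any other member. Pooled over libraries, ETS1 was 1758-fold higher in Jurkat (95% interval 753 to 5419, from 3813 against 5 counts), and its fitted log2 difference was 10.83 (SE 0.78, edgeR adjusted p = 0.000898), or 11.59 without the second pure HEK library and 10.03 without the second pure Jurkat library. IKZF1 (chr7:50304068-50405101), which encodes Ikaros, was at 0.317 and 0.330 CPM in pure HEK, from 3 and 5 counts, and at 248 and 208 CPM in pure Jurkat. Between them its pairs were 7.95 and 8.59, 19.3 and 19.0, 24.7 and 30.4, 46.0 and 37.4, and 86.1 and 118 CPM. No pair of neighbouring conditions overlapped for IKZF1. Its pooled fold was 692 (95% interval 351 to 1604, from 2400 against 8 counts), with a log2 difference of 9.62 (SE 0.32, edgeR adjusted p = 0.00064).

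RUNX3 (chr1:24899511-24965121), the Runt factor of the CD8 lineage, differed least among the 9 members that were higher in Jurkat. Its libraries were at 11.2 and 14.1 CPM in pure HEK, 16.2 and 21.9, 18.2 and 16.6, 17.2 and 16.6, 22.2 and 17.3, and 20.9 and 21.5 CPM from 20% to 80% Jurkat cells, and 35.1 and 55.6 CPM in pure Jurkat. The 10 mixed libraries lay within 16.2 to 22.2 CPM and hardly followed the share of Jurkat cells. The log2 difference between the pure lines was 2.07 (SE 0.32, edgeR adjusted p = 0.00673).

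TOX and SATB1 are nuclear proteins that shape chromatin in developing T cells, and they differed in how much HEK expressed. TOX, on chromosome 8, was at 1.46 and 0.264 CPM in pure HEK, from 14 and 4 counts, and at 191 and 203 CPM in pure Jurkat, with 6.53 and 4.63, 16.3 and 13.0, 31.8 and 26.0, 27.0 and 17.9, and 70.4 and 56.8 CPM in the mixtures from 20% to 80% Jurkat cells. Its mean was lower with 60% than with 50% Jurkat cells, where the pairs overlapped. The pooled fold of TOX was 271 (95% interval 171 to 458), with a log2 difference of 8.17 (SE 0.71, edgeR adjusted p = 0.00137). The interval covers counting error only, and without the first or the second pure HEK library the log2 difference was 9.66 or 7.25. SATB1 (chr3:18345377-18445621) was at 43.5 and 51.0 CPM in pure HEK, 51.8 and 52.0, 67.7 and 67.7, 53.4 and 77.5, 81.4 and 111, and 101 and 142 CPM from 20% to 80% Jurkat cells, and 358 and 268 CPM in pure Jurkat. Pure HEK held 411 and 774 counts of SATB1, and its log2 difference was 2.95 (SE 0.26, edgeR adjusted p = 0.00135).

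**Figure D1:**
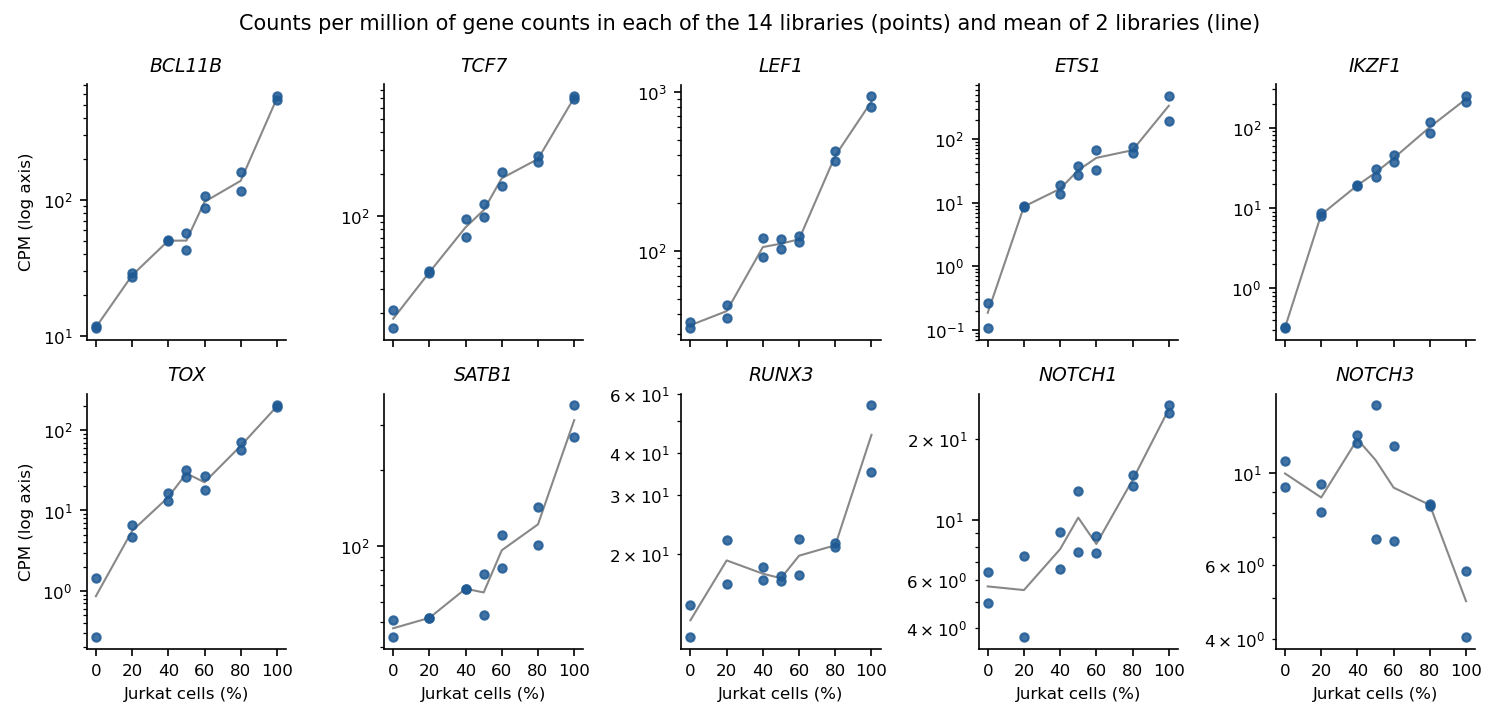
Level of each member in CPM (log axis, own range in each panel) against the percentage of Jurkat cells, with a point for each of the 14 libraries and a line through the mean of the 2 libraries. IKZF1 and ETS1 rise from below 1 CPM in pure HEK, RUNX3 stays between 16.2 and 22.2 CPM in all mixtures, and NOTCH3 is lowest in pure Jurkat.

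What pure HEK contained of each member, as a percentage of its Jurkat level in CPM, separated the set. ETS1, IKZF1 and TOX stood at 0.0554%, 0.142% and 0.437%, within the range of 0 to 0.924% of the 10 T cell markers. BCL11B, TCF7 and LEF1 stood at 2.09%, 2.59% and 3.94%, above every one of those markers. SATB1, NOTCH1 and RUNX3 stood at 15.1%, 22.2% and 27.8%, and NOTCH3 at 202%. The markers' summed level in HEK was 0.164% of that in Jurkat, and CD5 had no count in either HEK library.

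Levels of different genes were compared in TPM, the unit of RSEM that is scaled by transcript length. In pure Jurkat LEF1 was highest at 1006 ± 117 TPM (mean ± SD, n = 2 here and below), followed by TCF7 at 242 ± 5.38 TPM, each clear of the next. ETS1 at 111 ± 96.8, SATB1 at 77.6 ± 18.6, BCL11B at 71.1 ± 4.30 and IKZF1 at 64.7 ± 24.2 TPM formed a run in which neighbours overlapped. In CPM BCL11B, at 578 and 537, stood above ETS1 (194 and 475), SATB1 (358 and 268) and IKZF1 (248 and 208). TOX at 45.9 ± 1.18, RUNX3 at 12.5 ± 5.37, NOTCH1 at 4.17 ± 0.44 and NOTCH3 at 0.81 ± 0.23 TPM followed without overlap between neighbours. In pure HEK the order was LEF1 at 37.5 ± 1.34, SATB1 at 12.3 ± 1.62, TCF7 at 6.43 ± 1.32 and RUNX3 at 3.55 ± 0.60 TPM, with means of the other 6 members at or under 1.54 TPM. The length used for a gene could differ between libraries of a line. For ETS1 the ratio of TPM to CPM was 0.220 in one pure Jurkat library and 0.377 in the other, against 1.161 and 1.160 for LEF1. The ratios were 0.112 and 0.241 for NOTCH3 and 0.330 and 0.228 for IKZF1. In pure HEK, where ETS1 had few counts, its ratios were 0.189 and 1.058.

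The same counts were also set against the spike-ins, which were put into the mRNA of equal numbers of cells, so that this scale follows cell number rather than the share within a library. The counts alone cannot tell fewer cells of a type from less RNA per cell, but the numbers of cells were set by the mixing. The libraries of one condition differed in gene counts per spike-in count by 1.02-fold in pure Jurkat to 2.65-fold with 20% Jurkat cells. On this scale the median gene shifted to a log2 difference of -3.61 between pure Jurkat and pure HEK, with 3.22% of genes higher in Jurkat and 92.5% higher in HEK by edgeR with spike-in totals as library sizes. Of the members, 6 were still higher in Jurkat and 3 were higher in HEK. ETS1 was higher in Jurkat by 7.49 (SE 0.78), IKZF1 by 6.21 (SE 0.73) and TOX by 4.55 (SE 0.65) on the log2 scale. BCL11B at 2.26 (SE 0.54, edgeR adjusted p = 3.07e-05), TCF7 at 1.91 (SE 0.52, adjusted p = 0.000289) and LEF1 at 1.33 (SE 0.51, adjusted p = 0.00947) followed. RUNX3 and NOTCH1, higher in Jurkat in CPM, were higher in HEK per spike-in, at log2 differences of -1.44 (SE 0.54, adjusted p = 0.00811) and -1.17 (SE 0.57, adjusted p = 0.0423). SATB1 also changed sign, to -0.57, and did not pass (SE 0.51, adjusted p = 0.262). NOTCH3 was higher in HEK by this measure, at -4.35 (SE 0.64, adjusted p = 3.27e-11).

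**Figure D2:**
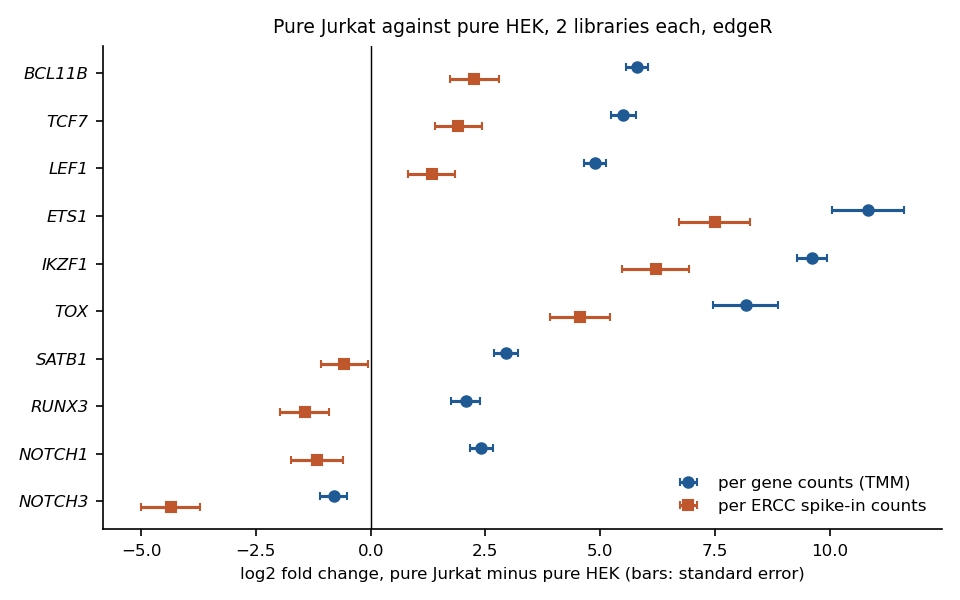
Log2 fold change of each member, pure Jurkat minus pure HEK (2 libraries each, edgeR), per gene counts (circles) and per spike-in counts (squares), with bars of 1 standard error. All members shift to the left per spike-in, and SATB1, RUNX3 and NOTCH1 cross 0.

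Per 10000 spike-in counts, the members took different courses along the series. IKZF1 was at 1.42% of its pure Jurkat mean in pure HEK and at 25.7%, 29.6%, 33.7%, 60.1% and 86.1% with 20%, 40%, 50%, 60% and 80% Jurkat cells, and its mean was higher at each of the 6 steps. Its libraries were at 0.468 and 0.321 counts per 10000 spike-in counts in pure HEK, 3.70 and 10.6 with 20% Jurkat cells, 15.0 and 32.9 with 80% and 29.9 and 25.7 in pure Jurkat. Pairs of neighbouring conditions stood apart at 2 of these steps for IKZF1 and at 3 for TOX. NOTCH3 went the other way, from 15.8 and 8.99 in pure HEK through 3.75 and 11.6, 3.53 and 6.89, 3.10 and 3.69, 3.06 and 3.97, and 1.45 and 2.35 to 0.703 and 0.497 counts per 10000 spike-in counts in pure Jurkat. Both HEK libraries were above all libraries with 40% or more Jurkat cells. NOTCH1 fell from 9.52 and 4.82 in pure HEK to 3.00 and 3.28 in pure Jurkat on this scale, and from 50% Jurkat cells upwards its libraries stayed between 2.57 and 3.76. SATB1 had means from 21.8 to 56.9 with no steady course.

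**Figure D3:**
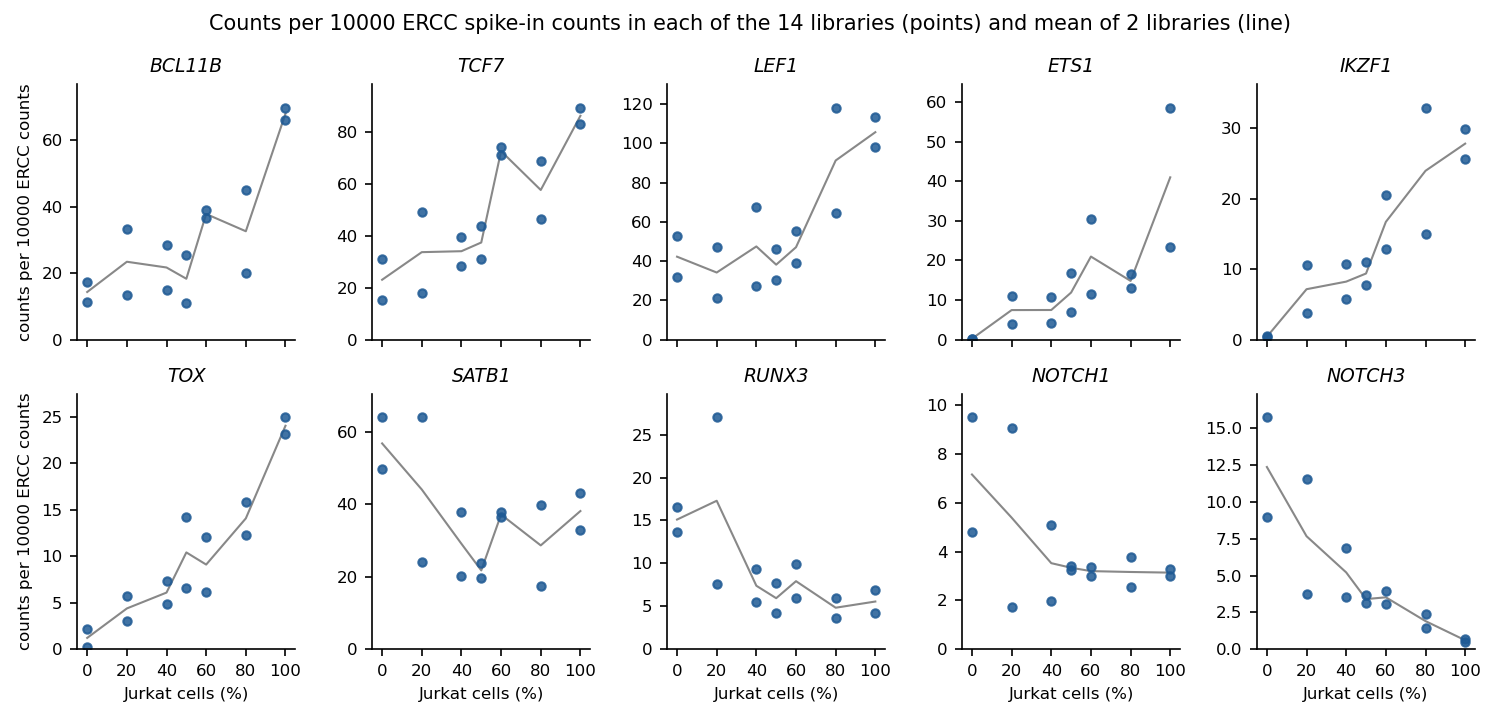
Counts of each member per 10000 spike-in counts (linear axis from 0, own range in each panel) against the percentage of Jurkat cells, with a point for each library and a line through the mean of 2. IKZF1, ETS1 and TOX start near 0 and rise, NOTCH3 falls to 0.703 and 0.497 in pure Jurkat, and the pair with 20% Jurkat cells is spread widely.

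Neighbouring conditions were then tested in a fit of all 14 libraries (edgeR, 19129 genes), to find where along the series each member changed. From 80% to 100% Jurkat cells, 9 members rose, against 7.65% of genes that rose and 26.2% that changed in either direction. The log2 steps were 2.45 (SE 0.49) for ETS1, 2.14 (SE 0.26) for BCL11B, 1.75 (SE 0.44) for TOX and 1.59 (SE 0.23) for TCF7, and 0.99 (SE 0.31, adjusted p = 0.0350) for NOTCH1, the smallest of the 9. NOTCH3 did not pass, at -0.66 (SE 0.33, adjusted p = 0.157). Without either library of the 80% condition 6 members were called, namely BCL11B, TCF7, LEF1, ETS1, IKZF1 and SATB1, and with spike-in totals as library sizes 0 were, beside 22.9% of all genes.

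At the other end, from pure HEK to 20% Jurkat cells, 5 members rose, against 0.941% of genes that rose and 0.951% that changed in either direction. ETS1 rose by 5.43 (SE 0.74, edgeR adjusted p = 0.00231), IKZF1 by 4.69 (SE 0.35, adjusted p = 4.3e-05), TOX by 2.89 (SE 0.56, adjusted p = 0.0318), BCL11B by 1.33 (SE 0.26, adjusted p = 0.0349) and TCF7 by 1.17 (SE 0.23, adjusted p = 0.0324) on the log2 scale. LEF1 was at 0.36 (SE 0.25), SATB1 at 0.20, RUNX3 at 0.65, NOTCH1 at 0.01 and NOTCH3 at -0.13, and none of these passed. The calls of ETS1 and IKZF1 held without each of the 14 libraries in turn, whereas the number of members called fell to 2 or 3 without either library of the pure HEK, 20%, 40%, 80% or pure Jurkat conditions. With spike-in totals as library sizes ETS1 and IKZF1 were the only members called, beside 0.915% of all genes, and with the file-name grouping as a term TOX was not. For ETS1 and IKZF1 this first step took the level from 1 to 5 counts per library to more than 7 CPM.

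Across the 4 inner steps no member was called by edgeR, as for nearly all genes (0.0209% called from 60% to 80% Jurkat cells, with 0.0157% higher at 80%, and 0% at the others). At an unadjusted p below the threshold of 0.05 there were 4, 4, 4 and 5 members, from the step next to 80% Jurkat cells down to the step next to 20%, beside 2213, 1491, 1235 and 1630 of all genes. DESeq2 called 3 members (LEF1, IKZF1 and TOX), 1 (TCF7), 0 and 3 (TCF7, LEF1 and IKZF1) at these steps, beside 2.78%, 0.469%, 0.386% and 0.881% of all genes it tested. The largest inner step was that of LEF1 from 60% to 80% Jurkat cells, at 1.74 (SE 0.25, edgeR adjusted p = 0.0556).

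How far a mixture lies from HEK towards Jurkat in a gene's CPM gives a Jurkat share of RNA, and this was computed for BCL11B, TCF7, LEF1, ETS1, IKZF1 and TOX, the 6 members with over 20-fold differences, a choice made after the pure levels were seen. Their median share was 2.93% and 2.71% in the 2 libraries with 20% Jurkat cells, 7.46% and 7.37% with 40%, and 11.0% and 11.5% with 50%. It was 16.9% and 13.1% with 60% and 35.8% and 30.8% with 80% Jurkat cells. Each of these shares was below the share of cells. The share fitted over all other genes was 4.22% and 3.79%, 6.99% and 7.91%, 15.9% and 8.33%, 22.4% and 14.8%, and 37.8% and 35.8% in the same order. From 200 marker genes it was 3.46% and 3.58% with 20%, 12.3% and 11.8% with 50% and 41.8% and 38.8% with 80% Jurkat cells. From cell percentages and spike-ins it was 2.43% with 20%, 9.06% with 50% and 28.5% with 80% Jurkat cells. Single members spread widely. The highest of the 6 lay below the share fitted over all other genes in both libraries with 20% Jurkat cells. It also lay below that share in the first library with 50% and the first with 60%, and above it in the others. At 80% Jurkat cells IKZF1 gave 37.7% and 51.5%, LEF1 40.3% and 46.6%, and ETS1 22.3% and 17.7%. The values of ETS1 rest on the 2 pure Jurkat libraries that differed, and were 38.5% and 30.6% without the second of them and 15.7% and 12.5% without the first, an alternative chosen after seeing the data. At 20% Jurkat cells LEF1 gave 1.38% and 0.476%, the lowest of the 6 members in both libraries, and the second value was 0.303% without the second pure HEK library.

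**Figure D4:**
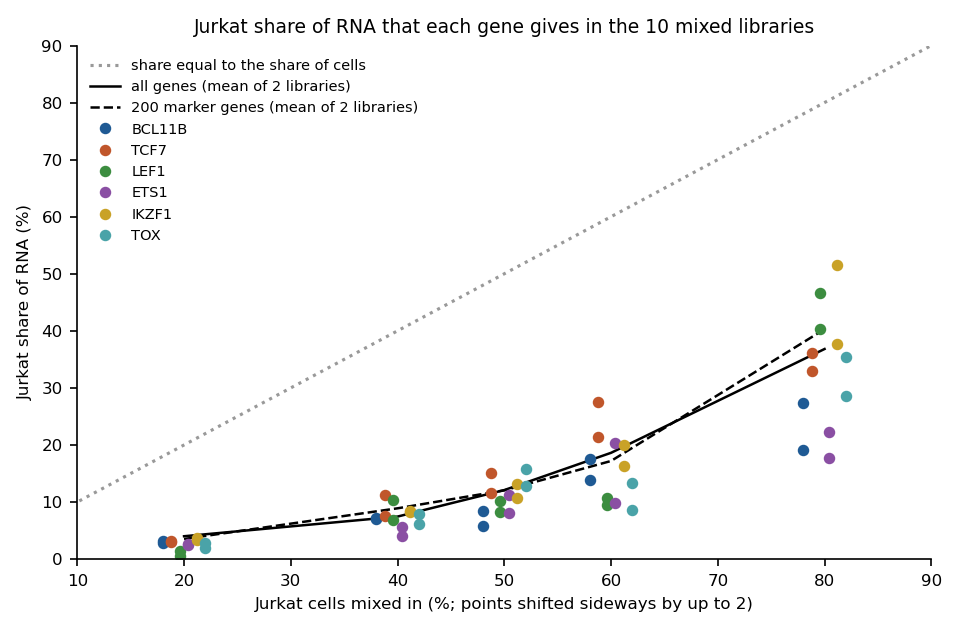
Jurkat share of RNA (percent) given by 6 members in the 10 mixed libraries (points) against the percentage of Jurkat cells, with the mean share from all other genes (solid line) and from 200 marker genes (dashed line), and a dotted line where both shares would be equal. All points lie below the dotted line, and the members spread most at 80% Jurkat cells, from 17.7% (ETS1) to 51.5% (IKZF1).

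Whether the members in mixtures sat where the pure lines and the RNA share put them was tested over the 10 mixed libraries. By edgeR, 18.7% of 19129 genes departed from additive mixing and 6.56% lay below it. Of the members 1 was called, ETS1, at a log2 difference from the expected level of -0.49 (SE 0.10, adjusted p = 0.00768). This call rested on the pure Jurkat libraries that differed for ETS1: without the second of them ETS1 lay above the expected level by 0.41 (adjusted p = 0.0135), and without the first it lay at -0.99. Over all alternatives its adjusted p ranged from 0.00014 to 0.965. BCL11B was at -0.29 (SE 0.10, adjusted p = 0.0544). The other 8 members were between -0.18 and 0.17 with adjusted p of at least 0.191. In CPM, without the scaling factors that the fit gave each library, ETS1 was below the expected level in 10 of 10 libraries. Its log2 ratios there were from -1.01 to -0.06, and BCL11B was below in 8 of 10 libraries. The p-values do not carry the error of the pure levels or of the RNA share.

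The other genes of the members' families and pathways were counted in the comparison of the pure lines (19% of all genes higher in Jurkat and 24.2% in HEK, as above). Of 16 family relatives 14 were tested, and 7 were higher in Jurkat, 3 were higher in HEK and 4 did not pass, with a median log2 difference of 1.11. RUNX1, the Runt factor of blood stem cells, stood at 177 ± 11.0 CPM in Jurkat against 2.67 ± 0.42 in HEK, a log2 difference of 6.28 (SE 0.27). IKZF2, which encodes Helios, was higher in Jurkat by 5.85 (SE 0.56). TCF7L1, a relative of TCF7 known from stem cells, and IKZF4, which encodes Eos, were higher in HEK, at -3.72 (SE 0.41) and -3.37 (SE 0.60). Per spike-in IKZF2 and RUNX1 were the only relatives higher in Jurkat, and 10 of 14 were higher in HEK, beside 3.22% and 92.5% of all genes.

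Of 5 Notch ligands 4 were tested, and 3 were higher in HEK with none higher in Jurkat, at a median of -2.42. JAG2 was at 12.1 ± 1.03 CPM in HEK and 1.63 ± 1.17 CPM in Jurkat, and DLL1 at 3.95 ± 0.55 CPM in HEK with no count in either Jurkat library, at least 6.84-fold higher in HEK by the floor of 3 counts per library. Of 15 enzymes, proteases and regulators of Notch 14 were tested, with 4 higher in Jurkat, 3 higher in HEK and 7 that did not pass, at a median of 0.24. MFNG, a glycosyltransferase that tunes ligand choice, had 0 and 5 counts in the HEK libraries and 31 and 55 in Jurkat, where it was at 7.90 ± 1.36 CPM (edgeR adjusted p = 0.00445), so its fold rests on few counts. ADAM10, the protease that makes the first activating cut, was higher in Jurkat by 2.17 (SE 0.24) in CPM but at -1.34 per spike-in. PSEN2, a presenilin of gamma-secretase, had no Jurkat count and was at least 21.5-fold higher in HEK, and RFNG, a relative of MFNG, was at -1.79 (SE 0.27). Per spike-in, MFNG was the only one of these 14 genes higher in Jurkat and the other 13 were higher in HEK, a share near the 92.5% of all genes tested. In the nuclear complex of RBPJ and its coactivators 3 of 4 genes did not pass, and MAML2 was higher in HEK, at -1.99 (SE 0.46), with a median of -0.40 over the 4. Per spike-in all 4 genes of this complex and all 4 ligands tested were higher in HEK, as were 92.5% of all genes.

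Of 7 known Notch targets 6 were tested, and 5 were higher in HEK and 1 in Jurkat, at a median of -2.00. HEY1, a repressor of the hairy family, stood at 122 ± 6.97 CPM in HEK and 1.33 ± 0.62 CPM in Jurkat, a log2 difference of -6.23 (SE 0.36). NRARP, a feedback inhibitor of Notch, had no Jurkat count and was at least 4.58-fold higher in HEK. DTX1, an E3 ligase known as a Notch target in T cells, had no HEK count, stood at 14.8 ± 0.70 CPM in Jurkat and was at least 57.5-fold higher there.

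Among 14 partners of TCF7 and LEF1, 6 were higher in HEK, 1 was higher in Jurkat and 7 did not pass, at a median of -0.66. CTBP2, a corepressor, was at 184 ± 3.07 CPM in HEK and 2.35 ± 1.03 CPM in Jurkat, a log2 difference of -6.04 (SE 0.37), and PYGO1, a beta-catenin cofactor, was at -3.62 (SE 0.39). TLE5, a short member of the Groucho corepressor family, was higher in Jurkat by 1.51 (SE 0.22) in CPM but at -2.08 per spike-in, where all 14 partners were higher in HEK beside 92.5% of all genes. Of 11 other T lineage factors 7 were higher in Jurkat, 2 were higher in HEK and 2 did not pass, at a median of 2.08. FLI1, an ETS factor, was higher in Jurkat by 7.35 (SE 0.34) and MYB, a factor of progenitor growth, by 5.16 (SE 0.31). ID2, an inhibitor of E proteins, was at 465 ± 42.7 CPM in HEK and 17.1 ± 0.19 CPM in Jurkat, and ZBTB7B, the CD4 lineage factor known as ThPOK, was at 1.88 ± 0.04 CPM in HEK with 0 and 1 counts in the Jurkat libraries. Per spike-in MYB and FLI1 alone of this list were higher in Jurkat, and 6 of 11 were higher in HEK, beside the same 3.22% and 92.5% of all genes.

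Of 5 factors of effector T cells 3 had too few counts to be tested and 1 did not pass. PRDM1, which encodes Blimp-1, was higher in Jurkat at 2.44 ± 0.03 CPM against 0.22 ± 0.13 CPM, from 2 to 3 counts in each HEK library (adjusted p = 0.00676), and did not pass per spike-in (adjusted p = 0.757). Of 10 subunits of NuRD, the deacetylase complex that works with BCL11B and Ikaros, 8 did not pass. CHD4, its ATPase, was higher in Jurkat by 1.22 (SE 0.26), against -2.36 per spike-in, and RBBP7, a histone binding subunit, was higher in HEK, at -0.86 (SE 0.26, adjusted p = 0.0492). The median of the 10 was 0.39, and per spike-in all 10 were higher in HEK, beside 92.5% of all genes.

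**Figure D5:**
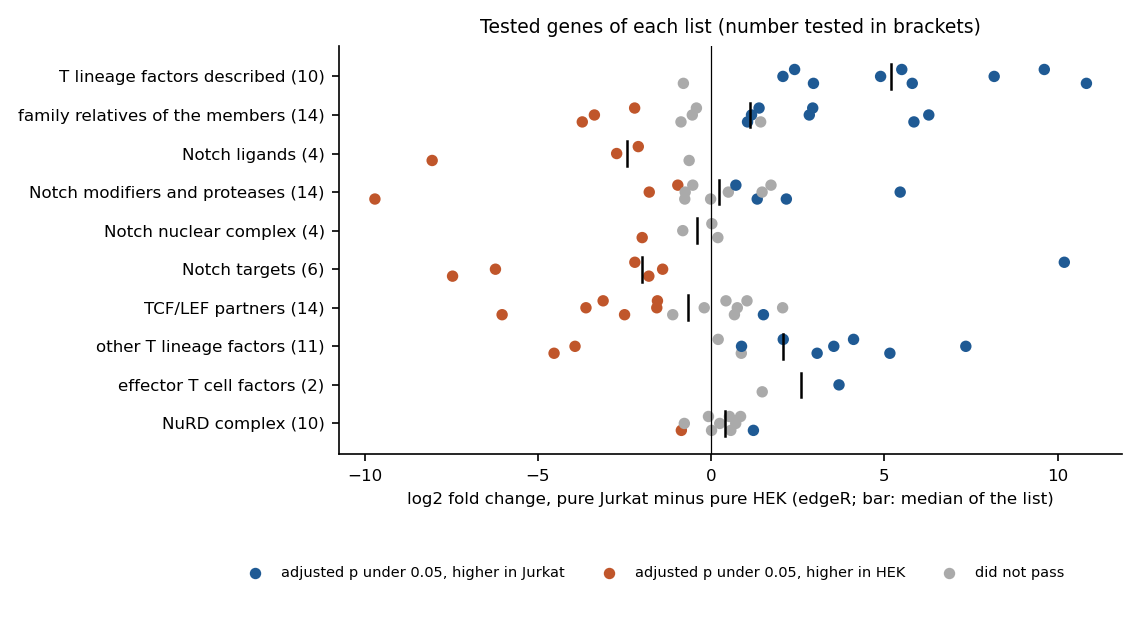
Log2 fold change, pure Jurkat minus pure HEK, of the tested genes in the members and 9 lists other than cell type markers (points; number tested in brackets), coloured by the edgeR call, with a bar at the list's median. The Notch targets lie on the HEK side except DTX1, and the NuRD genes lie near 0. DLL1, PSEN2, NRARP and DTX1 have no count in the other line, and their fitted values are no bounds.

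Over the 14 libraries, the genes whose log2(CPM + 1) most resembled that of each member were sought among 10026 candidates. All pairs share the libraries and the mixing series, so high correlations were common. BCL11B was nearest to GAS7 (Pearson r = 0.996) and ANKRD20A11P (0.995), TCF7 to MYB (0.993) and PRKCB (0.991), and LEF1 to LAT (0.988) and SP110 (0.985). ETS1 was nearest to IFI16 (0.992) and ITGB2 (0.991), IKZF1 to GRAP2 (0.996) and SLA (0.995), and TOX to SP140L (0.988) and TAL1 (0.986). SATB1 was nearest to SSH2 (0.984) and SEPTIN6 (0.982). LAT, GRAP2 and SLA encode adaptors of T cell receptor signalling. RUNX3 (INSIG1, 0.963, and RESF1, 0.956) and NOTCH1 (DDAH2, 0.971, and ELOVL5, 0.961) had looser neighbours. NOTCH3 was nearest to BRK1 (0.989) and GTF3C2 (0.987). Among the members themselves the closest pair was BCL11B and TCF7 (0.979) and the furthest RUNX3 and NOTCH3 (-0.777).

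All 10 members overlap another annotated gene, and although the libraries were made strand-specific by the study's methods, the strand setting of the counting was not given in the sources used here. Whether reads were shared with an expressed partner is therefore unknown. SKP1, antisense to TCF7, had 1237 counts on average in pure HEK and 895 in pure Jurkat. TBC1D5, on the same strand as SATB1 where their models overlap, had 358 and 672. TOX-DT, antisense to TOX, had 13.1 and 72.2, more on average in pure HEK than TOX itself, which had 14 and 4 counts there. LEF1-AS1 had 5.5 and 37.7 counts and SATB1-AS1 3 and 47.5. Their part in the members' values was not tested.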

How the data were processed

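Cells of 2 lines were mixed at 7 proportions and sequenced in 14 single-end libraries. The authors aligned reads to GRCh38 and the ERCC sequences with STAR 2.6.1b and counted them with RSEM 1.3.1, per the submitters' processing notes. The authors deposited unnormalized expected counts, of which 50.3% to 62.6% of those above 0 were whole numbers, and TPM, scaled by RSEM over genes and spike-ins together. The libraries were made strand-specific by the study's methods, but the strand setting of the counting and the annotation release are not given in the sources used here. Of 58440 genes, 57754 matched GENCODE release 44 by identifier, and the others held at most 0.327% of a library's counts. A deposited table of the whole series repeats the counts and was not used.

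Expected counts were rounded and spike-ins left out. CPM were computed over genes. The pure lines were compared with edgeR 4.0.16 (glmQLFit, glmQLFTest, TMM, filterByExpr) in R 4.3.3, with Benjamini-Hochberg adjustment over all genes tested at 0.05, and neighbouring conditions in a fit of all 14 libraries. Additive mixing used an offset from the pure levels and the RNA share of each library, fitted by least absolute deviation of log2(CPM + 1) over all genes except the members, with a lowest expected level of 0.2 CPM. glmQLFTest takes no model of an intercept alone, so its F test was computed from the same deviances. Intervals of pooled folds are exact 95% intervals for counts. Genes other than the members were named by rule: the 2 called genes with the largest difference in each direction of each list, the markers, and the 2 genes nearest to each member among genes whose log2(CPM + 1) averaged 3 or more. The test functions were run on simulated counts with known fold changes. Simulated mixtures were drawn from the measured pure levels, so that run does not carry the error of those levels. The members and lists were chosen with earlier results of these data known. Alternatives were DESeq2 1.42.0, limma 3.58.1, RLE and spike-in scaling, no filter, other RNA shares, the file-name groups, and each library left out. Python 3.11.15, pandas 2.3.3, numpy 2.4.6 and matplotlib 3.10.9 were used. The paired libraries differed by more than counting error (chi-square per degree of freedom of 18.4 to 129), so each was counted as a library of its own.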

Additional observations from a re-analysis of the deposited data

How the results depend on the processing

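Between the pure lines, 9 members were called under DESeq2, RLE size factors, all 14 libraries in the fit and the file-name term, beside 31%, 43.1%, 41.7% and 25% of all genes against 43.2%. The count was 10 without a filter on low counts, where NOTCH3 was at -0.96 (adjusted p = 0.0329), and 9 to 10 with each pure library left out, beside 28.1% and 19.4% to 36.1% of all genes. With spike-in totals as library sizes 9 were called, 6 higher in Jurkat and 3 in HEK, with SATB1 at -0.57, RUNX3 at -1.44 and NOTCH1 at -1.17, and the share of all calls that were higher in Jurkat went from 44% to 3.37%. From 80% to 100% Jurkat cells the count of 9 became 0 with spike-in totals and 6 to 9 with each library left out, and from pure HEK to 20% Jurkat cells the count of 5 became 2 with spike-in totals, 4 with the file-name term and 2 to 5 with each library left out. From 60% to 80% Jurkat cells 0 became 3 under DESeq2, 3 without a filter and 0 to 1 (LEF1) with each library left out, while the share of all genes called went from 0.0209% to 2.78% under DESeq2 and 2.42% without a filter. From 50% to 60% it became 1 under DESeq2, from 40% to 50% it became 2 (ETS1 and TOX) without a filter, and from 20% to 40% it became 3 under DESeq2 and 3 without a filter. The shares of all genes called were then 0.469%, 1.86%, 0.881% and 2.44%, in that order, against 0%. Off additive mixing, 1 member became 3 with the share from cell percentages and spike-ins (TCF7, IKZF1 and RUNX3), 3 without a filter (TCF7, ETS1 and RUNX3), 2 with limma (BCL11B and ETS1), 0 in the 4 mixed libraries of the one file-name group and 0 in the 6 of the other, and 1 to 2 with each library left out. Of all genes 19.6%, 51.3%, 15.9%, 0.392% and 3.21% were called under the first 5 of these and 14.4% to 31.2% with each library left out, against 18.7%. ETS1 was at -0.51 and -0.47 in the file-name groups of 4 and 6. With each library left out it ranged from -0.99 to 0.41, the upper value without the second pure Jurkat library, and was at -0.01 with the share from cell percentages and spike-ins. Per spike-in count, 6 members had a higher mean in pure Jurkat, against 9 in CPM. The cause of these changes was not tested. No paired analysis was possible because the libraries carry replicate numbers given in accession order only. With 2 technical libraries a condition, and 1 to 5 counts of ETS1 and IKZF1 in each HEK library, depth limits how far below Jurkat these genes can be placed in HEK.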
